A study of Mus musculus with 8 samples.

Results

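Chromatin accessibility in BV2 cells, an immortalised mouse microglial line, was compared between cells grown with glioma cells under low oxygen and cells grown alone at ambient oxygen. The hypoxic co-culture group holds BV2 cells seeded onto GL261 mouse glioma cells at 1 BV2 cell to 2 GL261 cells and kept below 0.1% oxygen for 16 h. The normoxic monoculture group holds BV2 cells grown alone at 21% oxygen. Each group has 2 libraries that the labels call replicates, so 4 of the 8 ATAC-seq libraries of the series entered the comparison. The other 4 libraries, 2 of hypoxic monoculture and 2 of normoxic co-culture, were read only at the same regions. Both oxygen and culture differ between the groups compared, so their effects cannot be told apart within this contrast. Per the labels, hypoxic cells were fixed with formaldehyde inside the chamber, and cells positive for the leukocyte marker CD45, or for GFP, were sorted before the Tn5 transposase reaction; the labels do not say which gate each library had. All groups come from these established lines, not from primary microglia or tumour tissue. Peaks of the 4 libraries on chromosomes 1 to 19 and X that overlapped by at least 1 bp were merged into 33137 regions, against 40770 when all 8 libraries were merged. A region with a peak in both hypoxic co-culture lists and in neither normoxic monoculture list is called gained, the opposite pattern is called lost, and a region with a peak in all 4 lists is called shared.

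ATAC-seq marks DNA that a transposase can reach, which in most cells means active promoters and enhancers. When oxygen falls, prolyl hydroxylases stop marking the HIF alpha subunits for destruction, and HIF binds hypoxia response elements near genes for glycolysis, angiogenesis and mitophagy. Some histone demethylases also need oxygen as a substrate. Microglia are the resident macrophages of the brain, and in glioma they are recruited by the tumour and supply factors that remodel matrix.

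The comparison can be read at 6 promoters, which were picked after the values were seen from genes that the naming rule made eligible. They are shown because 5 of them lie in gained regions (a glycolytic switch, a stress gene, an angiogenic factor, the highest ranked gain, and a neural stem cell factor) and the sixth in a shared region that ranked lower. Each run is the 250 bases before the gene's start site in RefSeq's GRCm38.p6 table, written 5′ to 3′ on the gene's strand, with the letters ACGTG or GCGTG of the hypoxia response element core, as read on that strand or its reverse, in capitals.
Pdk1: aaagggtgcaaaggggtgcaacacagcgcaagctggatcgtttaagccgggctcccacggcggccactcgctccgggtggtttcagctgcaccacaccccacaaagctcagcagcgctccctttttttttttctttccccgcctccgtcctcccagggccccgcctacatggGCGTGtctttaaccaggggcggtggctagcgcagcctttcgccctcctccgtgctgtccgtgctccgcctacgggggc
Ddit4: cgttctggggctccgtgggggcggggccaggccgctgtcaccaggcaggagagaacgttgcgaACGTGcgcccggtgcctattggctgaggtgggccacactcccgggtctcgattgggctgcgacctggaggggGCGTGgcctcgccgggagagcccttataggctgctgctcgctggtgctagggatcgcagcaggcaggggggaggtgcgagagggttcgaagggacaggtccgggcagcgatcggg
Vegfa: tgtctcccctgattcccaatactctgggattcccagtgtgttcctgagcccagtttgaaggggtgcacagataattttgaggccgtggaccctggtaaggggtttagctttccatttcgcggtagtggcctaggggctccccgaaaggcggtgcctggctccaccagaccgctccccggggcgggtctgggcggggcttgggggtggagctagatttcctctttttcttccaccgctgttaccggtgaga
Camsap1: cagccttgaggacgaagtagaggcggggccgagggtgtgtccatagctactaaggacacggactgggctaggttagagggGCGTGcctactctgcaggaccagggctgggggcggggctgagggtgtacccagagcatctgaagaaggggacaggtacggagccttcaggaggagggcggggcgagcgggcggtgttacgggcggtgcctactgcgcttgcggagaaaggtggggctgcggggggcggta
Sox2: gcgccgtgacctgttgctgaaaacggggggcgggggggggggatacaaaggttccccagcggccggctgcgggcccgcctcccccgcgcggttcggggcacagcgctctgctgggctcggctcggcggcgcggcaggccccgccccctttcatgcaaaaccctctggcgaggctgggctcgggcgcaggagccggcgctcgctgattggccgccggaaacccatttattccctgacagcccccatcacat
Itgb1: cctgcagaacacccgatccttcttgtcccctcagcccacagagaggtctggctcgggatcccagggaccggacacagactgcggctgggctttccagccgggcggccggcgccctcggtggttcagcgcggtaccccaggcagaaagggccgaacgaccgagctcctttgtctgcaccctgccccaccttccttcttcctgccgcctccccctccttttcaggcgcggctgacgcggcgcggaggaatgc

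The Pdk1 run is chr2:71872974-71873223 on the plus strand, and its single GCGTG begins 78 bases before the start site. Ddit4, at chr10:59951771-59952020 on the minus strand, has ACGTG 187 bases and GCGTG 115 bases before the start. Camsap1, at chr2:25983283-25983532 on the minus strand, has GCGTG 170 bases before the start. Vegfa at chr17:46032378-46032627 on the minus strand, Sox2 at chr3:34649745-34649994 on the plus strand and Itgb1 at chr8:128685404-128685653 on the plus strand hold 0 such letters in these 250 bases, which says nothing of elements farther away. The deposited summits in the 2 hypoxic co-culture lists lay at -98 and -144 bp from the start of Pdk1, at -161 and -169 bp for Ddit4, and at -178 in both lists for Camsap1. They lay at -9 and -60 bp for Vegfa and at -98 and -140 bp for Sox2. At Itgb1 the summits of the normoxic monoculture lists lay at 4 and -6 bp and those of hypoxic co-culture at -2 and -84 bp.

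The hypoxic co-culture lists were longer than the normoxic monoculture lists. They held 29647 and 21625 peaks on the chromosomes used, against 13326 and 9903 peaks (25636 ± 5672 against 11615 ± 2420, mean ± SD, n = 2 each), a ratio of 2.21. The groups did not overlap, but an exact two-sided permutation test of 2 against 2 gave p = 0.333, the smallest it allows. The lists hold no read totals. A background coverage of 1.42 and 1.17 fragments in hypoxic co-culture and 0.758 and 1.03 in normoxic monoculture was estimated from the deposited folds and p-values, so estimated depth moved with the group. The share of peaks with a protein-coding gene starting or ending at most 1 kb away was 33.1 ± 5.09% in hypoxic co-culture and 38.6 ± 1.94% in normoxic monoculture (SD, n = 2; exact permutation p = 0.333), and the sign of this difference turned to 8.20 percentage points higher when every list was limited to its 9903 strongest peaks. Where nothing says that libraries came from separate cultures, these p-values measure only the spread between libraries.

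Of the 33137 regions, 7700 (23.2%) were gained and 165 (0.498%) were lost. A further 6647 regions (20.1%) were shared. The other 18625 had mixed patterns, of which 10386 were called in 1 hypoxic co-culture list alone (8506 in replicate 1 and 1880 in replicate 2) and 4591 in both hypoxic co-culture lists and 1 normoxic monoculture list. A missing peak means that the region did not pass the caller's threshold in that library, not that the DNA was closed. For thinning, the estimated fragments of each peak were reduced at random to match the lowest estimated background coverage. Peaks that then fell below their list's own lowest −log10 p were dropped, which left 7088 gained and 170 lost regions. Matching on estimated fragment number, chosen after seeing the data, left 7050 and 195. Lists thinned on coverage stayed unequal, at 27417 and 20333 peaks in hypoxic co-culture and 13326 and 9245 in normoxic monoculture. With every list limited to 9903 peaks the counts were 1814 and 1428, so the excess of gains over losses (97.9% of the regions in either class as deposited) stood at 56.0% there. Of the 7700 gained regions, 1591 were among the 9903 strongest peaks of both hypoxic co-culture lists. The contribution of estimated depth and list length to the count of gains was otherwise not tested.

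**Figure D1:**
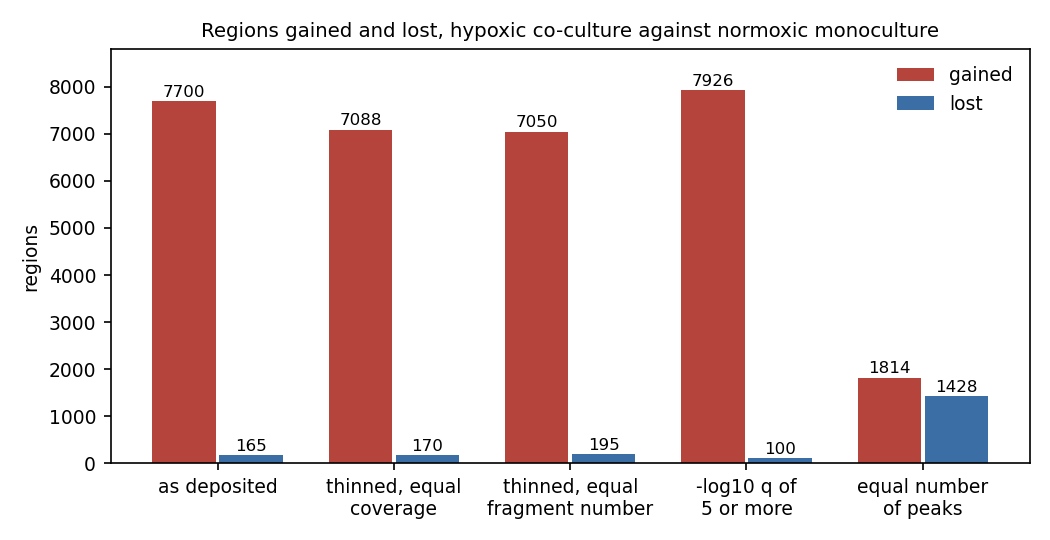
Number of regions (vertical axis) gained (red) and lost (blue) in hypoxic co-culture against normoxic monoculture, for the lists as deposited, 2 forms of thinning, a stricter −log10 q, and lists of equal number. Gains outnumbered losses in each setting, from 7926 against 100 at the stricter threshold to 1814 against 1428 in lists of equal number.

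Gained regions lay farther from gene starts than shared ones and nearer to them than lost ones. Distances were taken to the nearest RefSeq start of any gene type, with chromosome 18 left out. Their median was 11.1 kb for gained regions, 21.2 kb for lost regions and 1.71 kb for shared regions, against 12.5 kb for all regions. An end of a protein-coding gene lay within 1 kb of 31.4% of gained, 10.9% of lost and 49.7% of shared regions. Promoter windows (250 bases before to 50 after a RefSeq start, none on chromosome 18) overlapped 2067 of 7470 gained regions (27.7%), 15 of 160 lost regions (9.38%) and 3039 of 6449 shared regions (47.1%). Median widths were 582 bp, 663 bp and 854 bp. Gained regions were mid-ranked peaks: their median percentile of −log10 p within the list was 49.7 in replicate 1 and 40.0 in replicate 2 of hypoxic co-culture, and 114 of the 7700 were above the 90th percentile in both. Lost regions had medians of 28.0 and 23.1 in the normoxic monoculture lists, and 0 of the 165 were above the 90th percentile in both.

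Most gained regions also had a peak when only 1 of the 2 conditions was present. Of the 7700, 5477 (71.1%) had a peak in at least 1 hypoxic monoculture list and 5472 (71.1%) in at least 1 normoxic co-culture list, and 6893 (89.5%) in at least 1 of those 4 lists. All 4 lists held 2014 of them (26.2%). Both hypoxic monoculture lists and neither normoxic co-culture list held 856 (11.1%), and the reverse pattern held for 808 (10.5%). None of the 4 held 807 (10.5%), and these were weaker peaks, with a median lower percentile of 21.4 in hypoxic co-culture against 49.1 for those in all 4 lists. The 4 other lists held 21780 to 26333 peaks, also more than either normoxic monoculture list. The order of these classes turned with list length: when every list was cut to equal number, 220 of 1814 gained regions were in all 4 other lists and 434 in none. Of the lost regions, 149 of 165 (90.3%) had a peak in at least 1 of the other 4 lists, 39 in all 4 and 16 in none.

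**Figure D2:**
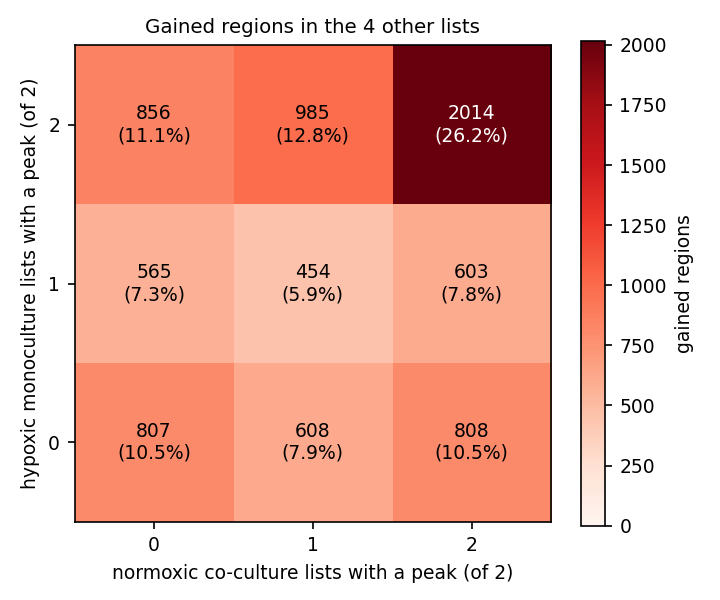
Gained regions counted by the number of normoxic co-culture lists (horizontal axis) and hypoxic monoculture lists (vertical axis) that also held a peak there; colour and numbers give the regions and their share of the 7700. The largest cell is the top right corner, 2014 regions present in all 4 lists, and the corner with none holds 807, for lists as deposited; in lists of equal number these were 220 and 434.

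Gains that hypoxia alone also showed and gains that co-culture alone also showed lay at different places. A gene end was within 1 kb of 8.64% of the 856 regions found in both hypoxic monoculture lists but in neither normoxic co-culture list, and 5.70% overlapped a promoter window. The corresponding values were 30.9% and 30.3% for the 808 regions of the reverse pattern. When 1 list of the other group was allowed, the shares near a gene end were 20.9% of 985 and 56.2% of 603. The same split was present among regions that were neither gained, lost nor shared, at 7.34% of 1581 and 32.7% of 600, so it was not particular to gains. These shares describe regions and carry no test over samples. Over whole lists the share of peaks near a gene end also ran lower in hypoxic monoculture (29.3 and 27.4%) than in normoxic co-culture (34.6 and 36.3%).

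**Figure D3:**
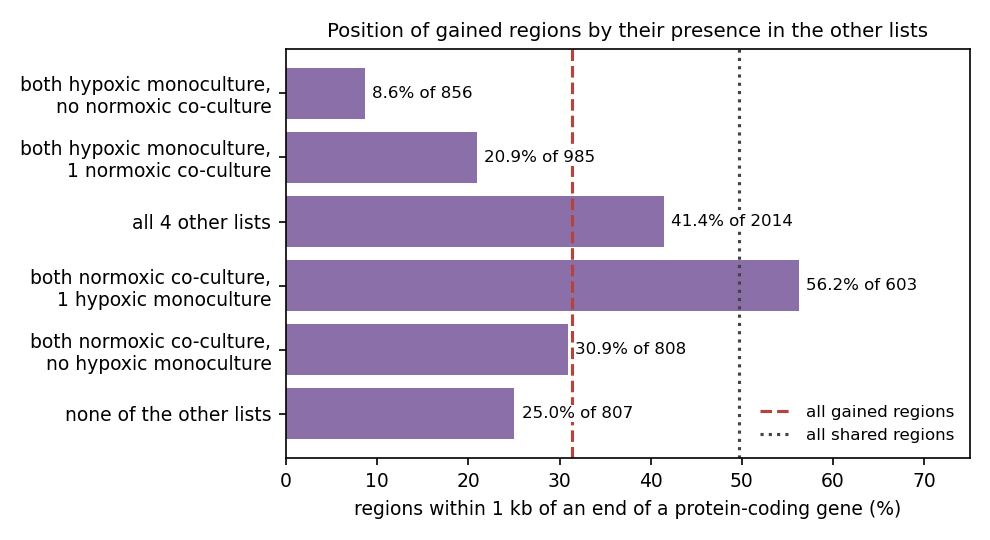
Share of gained regions at most 1 kb from either end of a gene (horizontal axis, percent) by which of the other lists also held a peak; the dashed line marks all gained regions (31.4%) and the dotted line all shared regions (49.7%). Regions also called in both hypoxic monoculture lists alone sit at 8.64% and those called with normoxic co-culture and 1 hypoxic monoculture list at 56.2%.

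Of the 10 strongest gains, 8 were at promoters. At the promoter of Camsap1, which encodes a protein that binds microtubule minus ends, the peak at chr2:25983163-25983822 stood at percentiles 99.4 and 98.8 of the hypoxic co-culture lists and was absent from both normoxic monoculture lists. The same region was at 97.2 and 94.9 in hypoxic monoculture and at 95.7 and 95.3 in normoxic co-culture, so normoxic monoculture alone lacked a peak there. The next was chr19:46499766-46500266, 1382 bp from Trim8, a ubiquitin ligase gene, at 98.5 and 98.7. The promoters of Oaz1 (98.3 and 97.5), which restrains polyamine synthesis, Dnm2 (97.4 and 97.6), an endocytic dynamin, and Miga2 (98.0 and 97.3), a mitochondrial fusion gene, followed. A shared promoter of Nfkbib, an NF-kB inhibitor, and the sirtuin Sirt2 was at 97.3 and 97.2. The list closed with the Ccdc159 and Tmem205 promoter, Gatad2a, Msrb1 and a region within Sh2b3, all between 96.0 and 98.4. Of these 10 regions, 8 had a peak in all 4 other lists, and those near Trim8 and Msrb1 were in both hypoxic monoculture lists and 1 normoxic co-culture list.

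Losses were few and lower in rank. The strongest lay in the immunoglobulin heavy chain locus Igh, at chr12:115757494-115758281, with percentiles of 84.3 and 91.9 in normoxic monoculture and no peak in hypoxic co-culture. A second Igh region, chr12:114990856-114991532, stood at 95.9 and 82.4. Over the whole locus (chr12:113258768-116009954), 19 of 76 regions were lost, 0 gained and 15 shared, against a share of 0.498% lost over all regions. The locus was counted after these values were seen. The 76 Igh regions held a peak in 51 and 60 cases in normoxic monoculture, 33 and 45 in hypoxic monoculture, 24 and 64 in normoxic co-culture, and 24 and 16 in hypoxic co-culture. Normoxic co-culture replicate 2 therefore stood level with normoxic monoculture while replicate 1 stood level with hypoxic co-culture, so the locus did not separate the groups by culture. Igh genes are near-identical copies, and how reads there were placed is not given in the sources used here.

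A lost region at chr3:59260386-59261183 overlaps both Med12l and P2ry12, the purinergic receptor that marks homeostatic microglia. It stood at 85.8 and 78.6 in normoxic monoculture, at 56.3 and 80.3 in hypoxic monoculture and at 81.1 and 51.9 in normoxic co-culture, and it had no peak in either hypoxic co-culture list. Only the combined condition lacked the peak in both of its libraries. Among the other named losses, the one 518 bp from Tmem100 (82.5 and 72.7) was in both normoxic co-culture lists and in neither hypoxic monoculture list. The region at chr13:6889385-6889815 (89.0 and 77.1) had no gene within 100 kb. The remaining named losses were nearest to Sumf1 (83.7 and 77.9), Prg4 (81.4 and 75.8), Slc22a8, Pla2g4a and Fam3c. List genes had lost regions in 3 cases, P2ry12, the glutamate transporter gene Slc1a3 (21.8 and 33.7) and a region 1757 bp from Cst3, the cystatin C gene (48.7 and 53.7).

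At the 6647 shared regions the −log10 p values were ranked again over those regions only, so that each list contributed the same set. Both hypoxic co-culture percentiles lay above both normoxic monoculture percentiles at 1972 regions (29.7%), called higher, and below both at 2072 (31.2%), called lower. With 2 libraries a group these are orderings, not tested differences, and such orderings also arise from scatter between libraries. A gap of more than 20 percentile points separated the groups at 623 higher and 597 lower regions, and of more than 40 points at 155 and 107. The median difference was 24.8 points for higher and -23.0 points for lower regions. Libraries of the same group differed by a median of 7.42 points in hypoxic co-culture and 11.9 points in normoxic monoculture, and libraries of different groups by 15.1 to 18.5 points. Percentiles over the whole lists, which differ in length, gave 3029 higher and 1014 lower regions.

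Higher ranks were more common at promoter windows and lower ranks more common outside them. Of the 3039 shared regions at a promoter window 1217 (40.0%) were higher and 697 (22.9%) lower, while of the 3410 others 688 (20.2%) were higher and 1321 (38.7%) lower. When promoter and other regions were ranked separately, a choice made after seeing the data, the counts were level, as ranking within each set makes them by construction, at 949 higher and 961 lower promoters and 947 higher and 1012 lower other regions. GC content moved with the same split. Over 4 equal bins of GC, from lowest to highest, the share of promoter regions ranked higher went 28.3, 40.0, 44.4 and 47.6%, and the share ranked lower went 35.4, 21.3, 18.9 and 16.1%. Ranking among promoters alone, without bins, kept the direction of 949 of the 1217 higher and all 697 lower promoters. Ranking promoters within these GC bins kept 913 and 672. The part of GC in the ranks was not tested beyond this.

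Of the shared regions 6379 were called in all 8 lists, and 1905 of these were higher. Those 1905 had median percentiles of 36.9 and 34.3 in normoxic monoculture, 53.0 and 49.1 in hypoxic monoculture, 53.5 and 52.0 in normoxic co-culture, and 69.8 and 71.6 in hypoxic co-culture. The 2005 lower regions had medians of 66.4 and 69.6, 52.3 and 56.0, 52.5 and 54.2, and 35.6 and 32.9 in the same order. The median over all regions shared by the 8 lists is about 50.0 in every list by construction, and a list unrelated to the choice of regions would give that value. The values of both single conditions lay near it, and those of the groups compared were fixed by the choice, so nothing is read from these medians.

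**Figure D4:**
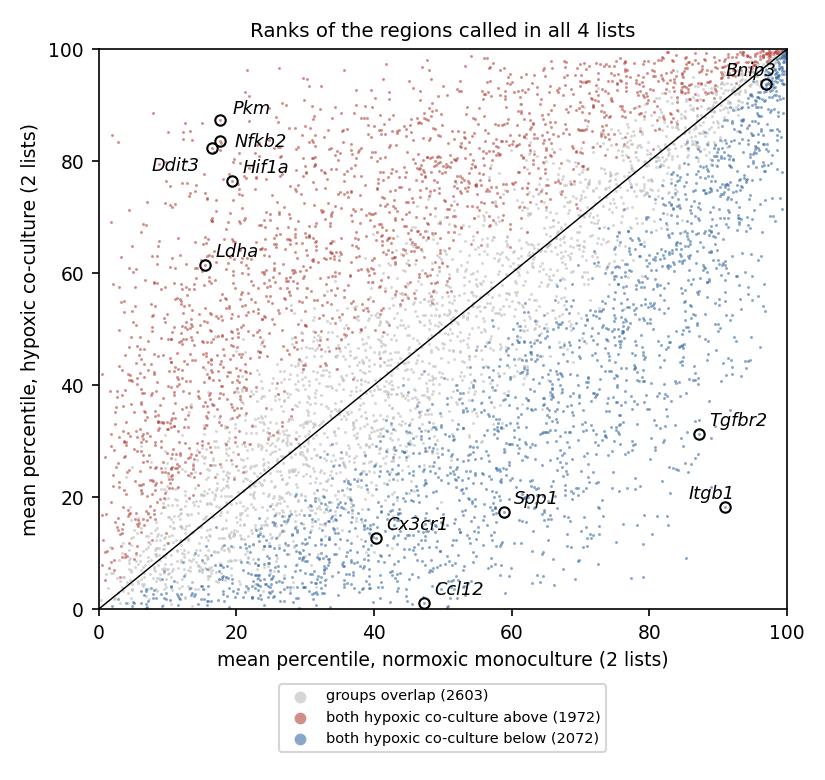
Mean percentile of −log10 p over the 2 normoxic monoculture lists (horizontal axis) and the 2 hypoxic co-culture lists (vertical axis) for the 6647 shared regions, with regions ranked higher in red, lower in blue and overlapping in grey. Circles mark regions at list genes, of which all but Itgb1 and Bnip3 were chosen after their values were seen, with Pkm, Ddit3, Nfkb2, Hif1a and Ldha above the line of equal ranks and Itgb1, Tgfbr2, Spp1, Cx3cr1 and Ccl12 below it.

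The widest gaps among higher regions were at promoters in 7 of 8 cases. The region at the shared promoter of Slc5a6, a vitamin transporter gene, and Atraid had percentiles among shared regions of 3.04 and 2.63 in normoxic monoculture and 83.2 and 83.9 in hypoxic co-culture. The region at Wdr4 and the Ndufv3 promoter, a gene of mitochondrial complex I, went from 2.87 and 1.11 to 79.4 and 90.0. The Cuta promoter went from 2.44 and 13.2 to 86.9 and 90.3, and that of Ptbp1, a splicing repressor, from 13.5 and 6.67 to 85.4 and 85.0. The rest of the 8 widest lay at Btd and Hacl1, Isyna1, Ccdc126 and Amhr2. In each of these regions the hypoxic monoculture and normoxic co-culture lists also held a peak.

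Lower regions with the widest gaps lay mostly inside genes and away from promoters. An intragenic region of Tnfrsf8, which encodes the receptor CD30, had percentiles among shared regions of 84.6 and 86.2 in normoxic monoculture and 7.75 and 10.5 in hypoxic co-culture. The promoter of Itgb1, the integrin beta chain shared by many matrix receptors, went from 93.7 and 88.3 to 19.4 and 17.2 (its 250 bases are printed above). The others were within Pard3, a polarity gene, Prkca and Camk2d, which encode kinases, and Fry, and at the promoters of Zfp995 and Lin7c. At the Itgb1 promoter the whole-list percentiles were 96.7 and 92.0 in normoxic monoculture, 79.7 and 80.5 in hypoxic monoculture, 89.2 and 96.3 in normoxic co-culture and 55.9 and 43.4 in hypoxic co-culture. The combined condition was thus the lowest group there.

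Genes were then grouped into 13 lists by role, of which 348 of 350 symbols matched the RefSeq table. Of 14590 protein-coding genes with a region overlapping them or within 10 kb, 42.6% had a gained region, 0.672% a lost one, 18.6% a shared region ranked higher and 12.1% one ranked lower. Of 312 list genes with a region, 149 had a gained region, 3 a lost one, 52 a higher and 42 a lower shared region. In lists of equal number, which keep peaks from percentiles 66.6 and 54.2 of the hypoxic co-culture lists upward, 45 of the 149 still had a gained region. Shared regions named at list genes below were chosen after their values were seen, except those of the 8 preset genes and Itgb1. Shares per list lay between 33.3% and 59.1% for gains. Each list is small, and these counts carry no test.

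**Figure D5:**
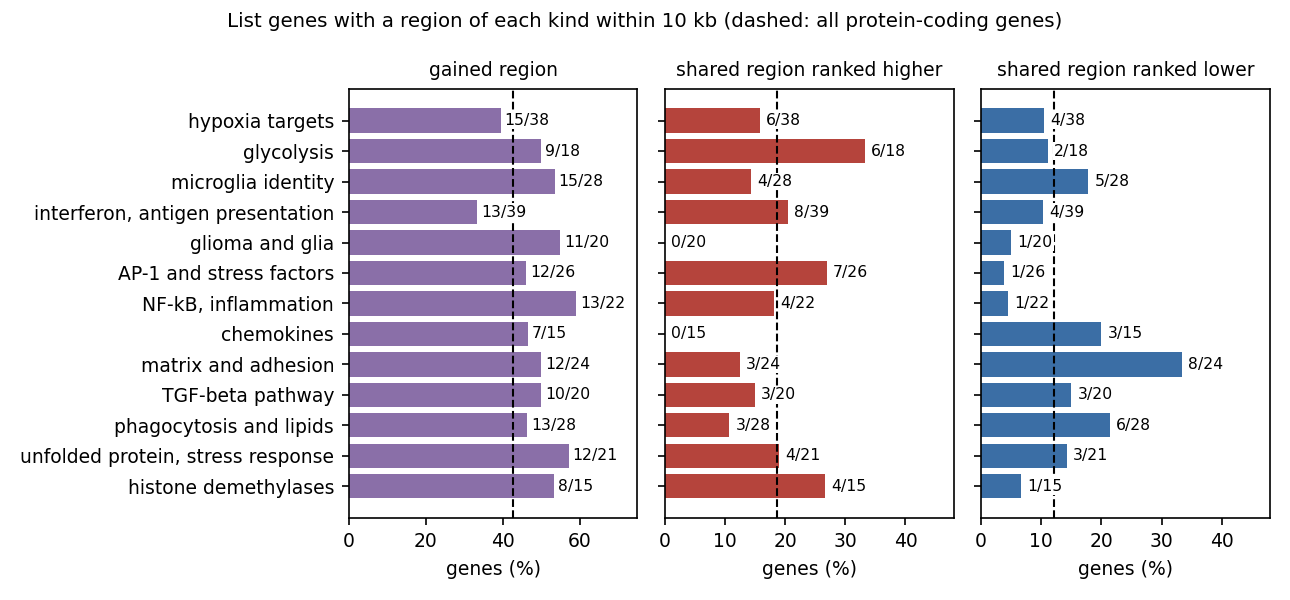
Share of each list's genes (horizontal axes, percent) with a gained region, a shared region ranked higher and a shared region ranked lower within 10 kb; labels give genes over genes with any region, and dashed lines give the share over all protein-coding genes. Glycolysis genes stand at 6 of 18 for higher ranks and matrix and adhesion genes at 8 of 24 for lower ranks.

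Hypoxia target genes had gains at a share close to that of all genes, 15 of 38 (39.5%). The Ddit4 promoter (chr10:59951617-59952384), whose product restrains mTOR signalling, was at percentiles 84.2 and 79.5 in hypoxic co-culture, 38.8 and 39.6 in hypoxic monoculture, and 73.1 and 74.0 in normoxic co-culture. Hypoxic monoculture ranked this peak lowest of the 3 groups that had it. The promoter of P4ha1, a collagen prolyl hydroxylase, was at 75.9 and 75.6, and that of Tfrc, the transferrin receptor, at 74.3 and 83.9. A region within Egln3, the oxygen sensor that HIF itself induces, stood at 69.3 and 49.5. The promoter of Vegfa, the main angiogenic growth factor, had a peak at chr17:46031899-46032830 at 47.0 and 54.1 in hypoxic co-culture. It stood at 29.5 and 38.9 in hypoxic monoculture, at 19.5 in normoxic co-culture replicate 1, and had no peak in replicate 2 or in normoxic monoculture. Ddit4, P4ha1 and Tfrc were the only 3 of the 15 that kept a gain in lists of equal number.

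Other hypoxia genes had peaks already at baseline. The promoter of Slc2a1, the glucose transporter GLUT1, was shared, with percentiles among shared regions of 36.1 and 27.2 in normoxic monoculture and 65.1 and 72.8 in hypoxic co-culture, and a region 2661 bp away was gained at 62.2 and 48.7 but not in lists of equal number. The Hif1a promoter, of the oxygen-regulated HIF subunit, went from 18.6 and 20.1 to 73.9 and 79.0. The promoter of Bnip3, a mitophagy receptor, was near the top in every list: its whole-list percentiles were 99.1 and 97.1 in normoxic monoculture and 98.0 and 98.3 in hypoxic co-culture. Among shared regions Bnip3 ranked 98.2 and 95.7 against 92.3 and 95.2, so it was lower on this scale, as it was on ranks among promoters of like GC content (97.2 and 93.4 against 83.6 and 89.6), and overlapped on whole-list ranks. A region 254 bp from Adm, the vasodilator adrenomedullin, was neither gained nor shared, at 20.5 in normoxic monoculture replicate 1 and at 70.2 and 35.2 in hypoxic co-culture. On shared ranks the list had 6 higher and 6 lower regions of 22, and on whole-list ranks 12 and 0.

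Glycolysis genes had a gained region in 9 of 18 cases and a higher shared region in 6 of 18 (33.3%, against 18.6% of all genes). The strongest was the promoter of Pdk1, a pyruvate dehydrogenase kinase gene, at chr2:71872665-71873376. It was at 97.0 and 94.1 in hypoxic co-culture, 82.3 and 83.9 in hypoxic monoculture and 52.3 and 70.6 in normoxic co-culture, and had no peak in normoxic monoculture. Both hypoxic groups lay above both normoxic ones at Pdk1. Gains near Aldoc (83.6 and 87.6), an aldolase, near Pfkl (73.2 and 76.0), a phosphofructokinase, and at the Gapdh promoter (58.5 and 61.7) followed, of which Gapdh was not retained in lists of equal number, where 3 of the 9 genes were.

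Among shared glycolytic regions, 6 of 13 ranked higher and 2 lower, and 9 and 1 on whole-list ranks. The Pkm promoter, of pyruvate kinase, went from 24.2 and 11.0 to 89.5 and 85.3 among shared regions. A region 2633 bp from Ldha, lactate dehydrogenase, went from 10.0 and 20.9 to 61.0 and 61.8. A region 4310 bp from Tpi1, triose phosphate isomerase, went from 7.99 and 14.3 to 54.2 and 67.7, and the Eno1 promoter, of enolase, from 77.8 and 46.9 to 90.1 and 95.7. At all 4 genes the groups did not overlap, as the higher class requires, and these genes were chosen after their values were seen. Lower regions lay within Pfkm and Pfkp, the other phosphofructokinase genes, that of Pfkp on shared ranks only.

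Genes of the unfolded protein and integrated stress responses had a gained region in 12 of 21 cases (57.1%). An intragenic region of Creb3l2, a membrane-bound transcription factor gene, was at 85.7 and 84.6, and regions upstream of Trib3 and Sesn2, both known targets of ATF4, were at 93.6 and 83.7 and at 93.7 and 81.7. The Chac1 promoter, another ATF4 target that degrades glutathione, was at 73.8 and 77.6 and in 1 of the other 4 lists only, normoxic co-culture replicate 1 at 20.7. In lists of equal number 6 of the 12 kept a gain, these 4 among them. The promoter of Ddit3, which encodes the stress factor CHOP, was shared and went from 10.9 and 22.1 to 80.1 and 84.6, and that of Atf5 from 33.2 and 40.1 to 80.7 and 83.1. Regions at Atf6, an endoplasmic reticulum stress sensor, were lower in 3 cases, the widest from 36.5 and 33.1 to 2.96 and 2.24. The promoters of the chaperone genes Dnajb9 (89.7 and 92.5 to 81.2 and 85.3) and Dnajc3 (97.5 and 93.9 to 92.1 and 91.0) were lower too, though Dnajc3 overlapped on whole-list ranks. The list had 4 higher and 5 lower of 15 shared regions, and 8 and 4 on whole-list ranks.

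NF-kB and inflammation genes had a gain in 13 of 22 cases (59.1%, against 42.6% of all protein-coding genes with a region), and 3 of the 22 in lists of equal number. The promoter of Nfkbia, the feedback inhibitor of NF-kB, was at 80.0 and 72.9 and had a peak in all 4 other lists. A region 643 bp from Rela was at 72.6 and 71.7, and a region 2100 bp from Il1b, the inflammatory cytokine, at 75.2 and 68.6. These were the 3 kept. Shared promoters of NF-kB subunit genes ranked higher, Nfkb2 from 19.5 and 15.9 to 80.4 and 86.8 and Rel from 10.6 and 13.04 to 66.6 and 59.8. Lower regions of this list all belonged to Tnfrsf1b, a TNF receptor gene, where 3 regions were lower on shared ranks and 2 on whole-list ranks. The widest went from 84.4 and 89.6 to 38.4 and 42.1.

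AP-1 and stress factor genes had 12 gains among 26 (46.2%) and 8 higher against 1 lower of 12 shared regions, with 8 and 0 on whole-list ranks. Promoters of Klf6 (77.1 and 84.8) and Ier3 (90.0 and 74.7), both early response genes, were gained. The Jun promoter was near the top throughout, at 87.4 and 89.3 in normoxic monoculture and 96.8 and 95.8 in hypoxic co-culture among shared regions. The Nfe2l2 promoter, of the antioxidant factor NRF2, went from 69.7 and 47.4 to 88.3 and 84.7. Histone demethylase genes had gains in 8 of 15 cases, led by a region 6514 bp from Kdm5a (85.9 and 77.8) and 1 within Kdm2a (74.5 and 90.4), and 5 higher against 1 lower of 9 shared regions. In lists of equal number 6 of the 12 AP-1 and stress factor genes kept a gain, Klf6 and Ier3 among them. Of the 8 demethylase genes 3 did, Kdm5a and Kdm2a among them.

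Microglial identity genes appeared in both directions. Gains were found at 15 of 28 identity genes (53.6%), among them the promoters of Cd68, a lysosomal macrophage marker (81.9 and 78.3), and Runx1, a myeloid transcription factor (58.7 and 68.7). A region inside Ptprc, which encodes the CD45 used for sorting, was at 78.5 and 65.8, in both hypoxic monoculture lists (74.5 and 76.7) and in neither normoxic co-culture list. The region 7425 bp from Olfml3, a microglial signature gene, had the same pattern at 75.9 and 58.5. Cd68, Ptprc and Olfml3 were the only 3 of the 15 kept in lists of equal number. Shared regions of this list were higher in 4 and lower in 7 of 16 cases, and 5 and 4 on whole-list ranks.

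Lower regions included the fractalkine receptor gene Cx3cr1, where a region 4729 bp away went from 40.4 and 40.1 to 15.1 and 10.4. The gene as a whole was not lower on whole-list percentiles. Its highest peak within 10 kb was at 59.8 and 56.0 in normoxic monoculture and 82.6 and 57.4 in hypoxic co-culture. At Mef2c, a transcription factor gene of homeostatic microglia, an intragenic region went from 87.6 and 92.3 to 61.6 and 37.9, and both other lower regions of the gene had the same direction on shared ranks. Regions at Tlr2, Tlr4 and Trem2 were also lower, those of Tlr4 and Trem2 on shared ranks only. Tlr2 and the Trem2 promoter each had a gained region as well, and Mef2c had 2, none of them kept in lists of equal number. Higher regions lay near Aif1 (48.7 and 71.5 to 91.6 and 96.8), the gene of the marker IBA1, and near the Fc receptor gene Fcgr1 (7.83 and 1.88 to 54.8 and 51.6). Spi1, which encodes the lineage factor PU.1, had 2 regions, both without a peak in normoxic monoculture and in hypoxic co-culture replicate 2, at percentiles 10.3 and 2.80 in hypoxic co-culture replicate 1. The first was also called in hypoxic monoculture (54.3 and 34.1) and normoxic co-culture (38.6 and 17.2). Csf1r, the receptor for the microglial survival factor, had a shared region with overlapping groups, at whole-list percentiles of 58.9 and 27.5 in normoxic monoculture and 78.6 and 31.6 in hypoxic co-culture.

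Interferon and antigen presentation genes had a gain in 13 of 39 cases (33.3%), and 4 of the 39 in lists of equal number. A region 3276 bp from Tapbp, the peptide loading factor tapasin, was at 91.7 and 94.7, and the promoter of Irf1, an interferon response factor, at 86.1 and 85.0. Gains at Cd86 (74.6 and 71.0), a costimulatory receptor, and at the H2-D1 promoter (60.5 and 82.1) followed, though H2-D1 was not kept in lists of equal number, unlike the other 3, and has near-identical class I paralogs between which reads can be split. Higher shared regions included 1 that lies 4980 bp from Bst2, the antiviral tetherin (42.7 and 48.5 to 93.0 and 93.2), and the promoter shared by Psmb9 and Tap1 (30.6 and 26.0 to 42.5 and 74.9). The list had 6 higher and 4 lower of 14 shared regions, and 8 and 0 on whole-list ranks.

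Chemokine genes had gains in 7 of 15 cases, led by a region 3887 bp from Ccl5 (90.4 and 67.0) and 1 that is 7752 bp from Cxcl16 (51.0 and 54.6), the latter in none of the other 4 lists. The promoter of Cxcr4, the receptor for CXCL12, was gained at 47.6 and 57.6, with 35.3 and 27.9 in hypoxic monoculture and 30.9 in normoxic co-culture replicate 2. Of the 7, Ccl5 alone was kept in lists of equal number. The promoter of Ccl12, a monocyte-attracting chemokine, was lower: its whole-list percentiles were 55.0 and 71.3 in normoxic monoculture, 61.2 and 77.3 in hypoxic monoculture, 81.5 and 70.8 in normoxic co-culture, and 10.0 and 11.2 in hypoxic co-culture. The combined condition stood apart from all 6 other libraries at Ccl12, which was chosen after its values were seen.

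Matrix and adhesion genes had the largest share with a lower shared region, 8 of 24 (33.3%, against 12.1% of all genes), and 11 lower against 3 higher of their 17 shared regions. On whole-list ranks these counts were 7 and 4. Beside both Itgb1 regions, an intragenic region of Adam8, a sheddase, went from 75.7 and 80.3 to 22.5 and 24.2. The promoter of Spp1, osteopontin, a marker of tumour-associated macrophages, went from 52.9 and 64.9 to 20.8 and 13.8, and a region 6777 bp from Mmp12, macrophage elastase, from 71.8 and 75.6 to 44.2 and 17.5. Gains in 12 of the 24 genes ran beside these, among them a region 1721 bp from Lgals3, galectin-3 (88.7 and 89.0, in all 4 other lists), and 1 within Timp2, a metalloproteinase inhibitor gene (89.3 and 74.8). In lists of equal number 3 of the 12 kept a gain, Lgals3 and Timp2 among them. Higher regions lay at Itga4, Itga5 and Mmp19, though Itga5 also had a region that was lower on both rank scales.

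In the TGF-beta pathway the Tgfbr1 promoter was gained, at 89.3 and 90.0 in hypoxic co-culture, 81.7 and 62.8 in hypoxic monoculture and 74.3 and 87.5 in normoxic co-culture. Tgfbr2, the type II receptor gene, had 10 regions of mixed classes. One of them, intragenic and shared, went from 84.0 and 90.4 to 33.0 and 29.4 among shared regions, the shared promoter region had overlapping groups, and a region 9910 bp away was gained at 56.0 and 39.9. The region within Smurf1, whose product degrades pathway components, was gained at 90.5 and 81.7. Over the list, 10 of 20 genes had a gain, and 3 shared regions were higher and 3 lower, or 7 and 1 on whole-list ranks. In lists of equal number 3 of the 10 kept a gain, Tgfbr1 and Smurf1 among them but not Tgfbr2.

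Phagocytosis and lipid genes had gains in 13 of 28 cases (46.4%). The promoter of Ctsd, the lysosomal protease cathepsin D, was at 85.9 and 88.2, and regions within Lpl, lipoprotein lipase, and Lgmn, the protease legumain, at 85.6 and 76.6 and at 88.9 and 75.8. In lists of equal number 5 of the 13 kept a gain, these 3 among them. Of 9 shared regions 3 were higher and 6 lower, but on whole-list ranks 3 and 1. The Npc2 and Srebf2 promoters, of cholesterol handling genes, and a region near the receptor gene Axl were the higher ones.

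Genes that mark glioma and glial cells also had gains, in 11 of 20 cases (55.0%), and Slc1a3 had a lost region. Their 6 shared regions all lay at Nfia, with 0 higher and 3 lower, or 0 and 1 on whole-list ranks. The promoter of Sox2, a neural stem cell factor, had a peak at 47.3 and 38.5 in hypoxic co-culture, at 22.7 in normoxic co-culture replicate 1, and in 0 of the 4 monoculture libraries. A region 9930 bp from Nes, which encodes the intermediate filament nestin, was at 53.0 and 41.6, with a peak at 46.6 in normoxic co-culture replicate 1. The Vim promoter, of vimentin, which microglia also express, was at 82.4 and 73.9 and in all 4 other lists. In lists of equal number 3 of the 11 kept a gain, Vim, Slc1a2 and Nfia, but neither Sox2 nor Nes did. The highest peak within 10 kb of Slc1a2 was at 75.4 and 63.5 in hypoxic co-culture and 82.9 and 80.5 in hypoxic monoculture. It was at 17.0 and 12.4 in normoxic co-culture. Aldh1l1 stood at 92.2 and 93.3 in hypoxic co-culture and 92.9 and 94.2 in hypoxic monoculture. S100b had a peak in both lists of each hypoxic group and in no normoxic list. Taking any peak within 10 kb, 7 of 30 glial markers (Col1a1, Gfap, Ncan, Nes, Pdgfra, Pou3f2 and Sox2) had a peak in both hypoxic co-culture lists and in 0 of the 4 monoculture lists. The same pattern held for 687 of 21631 protein-coding genes (3.18%), and none of the 10 microglial markers could show it, since each had a peak in at least 1 monoculture list.

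The whole glial list had a peak at 20 and 15 of 30 genes in hypoxic co-culture, 17 and 11 in normoxic co-culture, 8 and 11 in hypoxic monoculture and 5 and 2 in normoxic monoculture. The summed highest percentiles were 924 and 654 in hypoxic co-culture and 288 and 127 in normoxic monoculture. Markers with no peak in the 4 lists compared included Aqp4, Col1a2, Egfr, Fabp7, Olig2, Ptprz1, Sox10, Sox9 and Twist1. The 10 microglia and macrophage markers had a peak at 9 and 7 genes in hypoxic co-culture and 6 and 6 in normoxic monoculture, with sums of 601 and 462 and of 386 and 332, and Adgre1 had none. Over all protein-coding genes the share with a peak was 64.9 and 60.9% against 42.7 and 35.6%. The part of GL261 cells or their DNA in the gained regions was not tested, and in bulk libraries a change in the mix of cells and a change in accessibility per cell cannot be told apart.

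Letters of the hypoxia response element core were about as common in gained promoters as in all promoters with a region. ACGTG or GCGTG on either strand was in 44.0% of all 32619 promoter windows of 300 bases, 65.4% of those with any region, 66.5% of the 2633 with a gained region, 71.8% of the 1749 with a higher shared region and 60.1% of the 1014 with a lower one. Of 10675 windows with any region, 24.7% had a gained, 0.15% a lost, 16.4% a higher and 9.5% a lower region. Median GC was 53.0% over all windows, 61.3% in gained, 63.0% in higher and 58.3% in lower windows, and the core letters became more common with GC. Within the lowest of 4 GC bins 50.0% of gained, 53.4% of higher and 41.0% of lower windows held the core, against 44.8% of those with any region, and within the highest 77.1, 80.3 and 72.5% against 75.3%. In both bins between them the shares lay closer together, at 63.7, 68.5 and 66.5% against 67.2% and at 74.0, 77.4 and 76.1% against 74.9%. The AP-1 letters TGANTCA were in 3.89% of higher and 6.61% of lower windows (5.40% of windows with any region), and the PU.1 letters GAGGAAGT in 2.74% and 5.62% (3.52%), on either strand. The CRE letters TGACGTCA, which contain ACGT but not a full core, were in 3.95% of gained windows and 3.66% of those with any region. C/EBP letters TTGCNNAA were in 8.36% of gained windows against 8.05%. These are matches of letters in promoter windows and not measured binding sites, and regions outside promoters were not searched.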

How the data were processed

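ATAC-seq was carried out on 8 BV2 libraries, and the authors deposited a separate narrowPeak list for each, without pooling replicates. The submitters' processing notes name Trimmomatic 0.36, HISAT2 2.1.0, Picard, SAMtools, deepTools, MACS2 2.1.1.2 and build mm10; their parameters, read filters and any shift for the Tn5 insertion are not given in the sources used here. As deposited by the authors, each peak carries a fold (summit over local background in its own library), its significance as −log10 of both p and q, and a score derived from the latter. No read counts were used, so precision comes from replicate lists alone.

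Peaks of the 4 lists on 20 chromosomes were merged where they overlapped by 1 bp, and −log10 p was turned into percentiles within a list, or among shared regions only. Genes, start sites and promoter sequences came from RefSeq tables of GRCm38.p6, the assembly that mm10 also names. Single values per library were compared by exact permutation; regions were counted without a test. The merging and ranking steps were tested on simulated data. Regions named are the 10 gained and 10 lost with the highest lower percentile, the 8 shared with the widest gap in each direction, up to 4 gained and 2 lost regions per gene list, and 8 preset genes; other shared regions at list genes were picked after their values were seen. The members and lists were chosen with earlier results of these data known. Alternatives were lists of equal number, thinning, a stricter threshold, other overlap and distance rules, other ranks, a replicate block and leaving out each library. Python 3.11.15, numpy 2.4.6, pandas 2.3.3, scipy 1.17.1 and matplotlib 3.10.9 were used.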

Additional observations from a re-analysis of the deposited data

Results flagged for a closer look

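Peaks on chromosome Y were left out of the comparison. They numbered 11 in hypoxic co-culture replicate 1 and 8 in replicate 2, against 7 in each normoxic monoculture list, and are given here because they lie outside the regions compared and exceed the number in the control libraries. The hypoxic monoculture lists held 5 and 6 and the normoxic co-culture lists 10 and 10, which does not follow the order of list length.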

How the results depend on the processing

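Lists of equal number changed the most values. Gained and lost regions then numbered 1814 and 1428, higher and lower shared regions 1270 and 1292, and the difference in the share of peaks near a gene end turned from -5.51 to 8.20 percentage points. Gained regions were 220 in all 4 other lists, 212 with hypoxic monoculture alone, 201 with normoxic co-culture alone and 434 in none, lost regions 257 in all 4 and 235 in none, and list genes 53 gained and 31 lost. Cutting every list to the shortest removes more peaks from longer lists by construction. A stricter −log10 q of 5 left 100 lost regions, 4 of them in none of the other lists, and leaving out peaks over 10 kb gave 28 of that kind. Windows around summits gave 76 lost regions in all 4 lists and 7 list genes with a loss. Whole-list percentiles gave 3029 higher and 1014 lower shared regions. Asking for a peak in at least 1 of 2 libraries gave 4056 gained regions with both single conditions, 1421 with hypoxic monoculture alone and 1416 with normoxic co-culture alone, and 100 lost regions with both. A distance of 50 kb gave 233 list genes gained and 6 lost. The causes were not tested.

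Leaving out 1 library at a time gave 8944 to 16312 gained regions (the latter without hypoxic co-culture replicate 2), 233 to 1325 lost (775 without normoxic monoculture replicate 1, 1325 without its replicate 2, 584 without hypoxic co-culture replicate 1), 2514 to 4036 higher and 2630 to 4269 lower shared regions (3262 and 3414 without normoxic monoculture replicate 1, the top values without its replicate 2). Gained regions ranged from 2087 to 4475 in all other lists (the top without normoxic monoculture replicate 1), 904 to 1849 with hypoxic monoculture alone, 831 to 1132 with normoxic co-culture alone and 811 to 4133 in none; 1849 and 4133 were without hypoxic co-culture replicate 2, and 1750 in none without its replicate 1. Lost regions ranged from 70 to 346 in all 4 lists (the top without hypoxic co-culture replicate 1) and 16 to 347 in none (the top without normoxic monoculture replicate 2). List genes ranged from 167 to 235 gained (the top without hypoxic co-culture replicate 2) and 3 to 21 lost (the top without normoxic monoculture replicate 2). A single list passes more easily than a pair, so these counts rise by construction. The difference in peak number ranged from 10010.5 to 18032.5 and that in the share near gene ends from -9.11 to -1.91.

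The replicate numbers of the groups are not stated to pair the libraries. With a replicate block, pairing equal numbers, 2317 shared regions were higher and 2453 lower, and the peak number difference of 14021.5 and the gene end difference of -5.51 each had an exact sign-flip p of 0.5, the smallest that 2 pairs allow. Both forms of thinning, half-width overlap and fold in place of −log10 p kept every count they could give within 1.5 times its value. For the differences in peak number and gene-end share only the sign was compared. Both forms of thinning kept it, and other gene-end distances kept the sign of the gene-end difference. With 2 libraries a group the exact permutation and sign-flip tests used could not pass 0.05, and depth is known only as an estimate.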
